A study of Mus musculus with 8 samples.

Results

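The genes of glycolysis and of the response to low oxygen were followed in cells sorted from mouse medulloblastomas, tumours of the cerebellum. The set held 40 genes chosen by name, with earlier results of these data known. They were 25 enzymes of glycolysis and pyruvate use and 15 genes of the hypoxia response. Of them 34 were measured among 22180 genes. The arrays named the other 6 (Gpi1, Aldoa, Eno1, Pfkfb1, Bnip3l and Ankrd37) by no probe set of their own, and these were not analysed here. Each gene was read from the probe set that carries its symbol alone, and where there were several, from the one with the highest mean over the 8 arrays.

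The comparison was between Sox2-positive and Sox2-negative tumour cells. The mice were Patched1+/- with a CD1 parent and carried a Sox2eGFP reporter from a B6 parent. All had 3 Gy of ionizing radiation at birth, their age is given as over 70 days, and tumours were taken once signs of them showed, so both fractions share the genotype and the radiation. Cells with the leukocyte marker CD45 or the erythroid marker Ter119 were removed, and the rest were sorted by eGFP into 4 pools of Sox2-positive cells and 4 pools of Sox2-negative cells, 1 array each, with the RNA of 3 tumours per pool. Spread is thus between pools, not between single animals, and the number of arrays limits the precision.

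Glycolysis turns glucose into pyruvate in the cytosol. Several of its steps have isozymes, enzymes of the same reaction that are made from different genes and used in different tissues. In low oxygen, the transcription factors HIF-1 alpha (Hif1a) and HIF-2 alpha (Epas1) escape breakdown, pair with an ARNT partner and switch on genes that carry a short DNA element with the core ACGTG or GCGTG. Glycolytic enzymes, the angiogenic factor Vegfa and the prolyl hydroxylases that mark HIF for breakdown are among their known targets. HIF protein is set mainly by that breakdown, which messenger RNA levels do not show.

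In Sox2-positive cells 6 of the 34 measured genes rose and 0 fell. These were Epas1, 7.82-fold higher, the aldolase gene Aldoc, 2.09-fold higher, and at smaller size Egln3 (1.45-fold), P4ha1 (1.43-fold), Pfkp (1.29-fold) and Eno2 (1.23-fold). Most glycolytic enzymes and most classical hypoxia targets did not pass the test. A gene was called where limma's p-value, adjusted over all genes by the Benjamini-Hochberg method, was under 0.05. The calls made up 17.6% of the measured members, where 8.47% of all genes were called, 5.96% higher and 2.52% lower. Of the enzymes 3 of 21 were called (14.3%), and of the hypoxia genes 3 of 13 (23.1%). The difference between these shares was not tested. The groups did not overlap for 6 members (Epas1, Aldoc, Pfkp, Eno2, P4ha1 and Adm), all with Sox2-positive pools above, against 13.7% of all genes without overlap and 7.63% with Sox2-positive pools above. The median log2 difference, Sox2-positive minus Sox2-negative, was 0.20 for the enzymes, 0.17 for the hypoxia genes and -0.03 for all genes.

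At an unadjusted p under 0.05 the enzymes split, 10 higher and 3 lower (Hk2, Pdk4 and Pfkfb4). Of the hypoxia genes 6 were higher and 0 lower at that level. Over all genes, 20.1% passed that level, 10.4% higher and 9.69% lower. The 2 genes that differed by more than 2-fold were Epas1 and Aldoc.

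**Figure D1:**
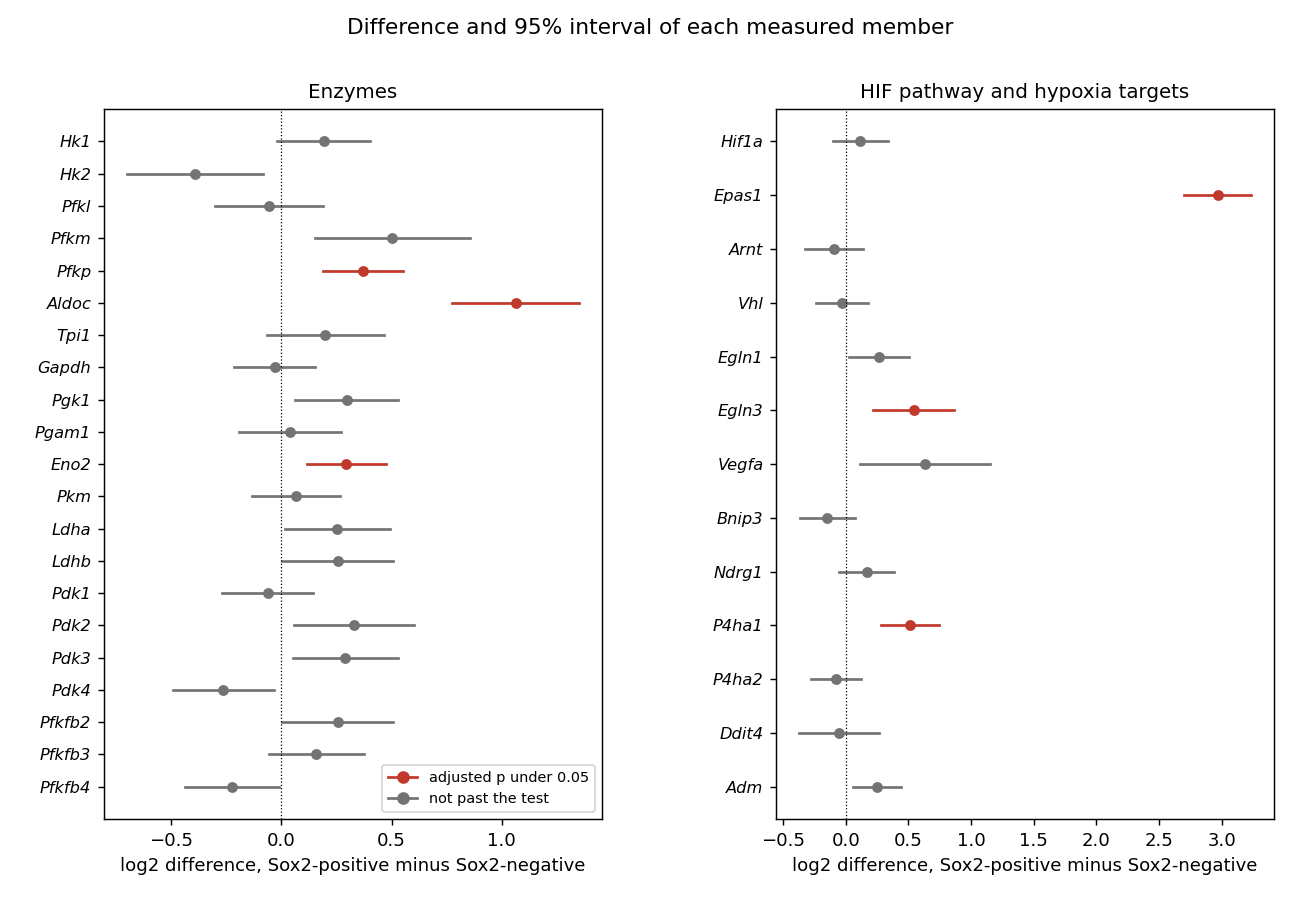
Log2 difference (Sox2-positive minus Sox2-negative, points) with its 95% interval (bars) for the 21 enzymes and the 13 hypoxia genes measured, each from 4 and 4 arrays. Red marks the 6 genes past the test, and the axes of the panels differ, as Epas1 lies at 2.97 and the other hypoxia genes at 0.63 or less.

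The fractions were first checked against their labels. Sox2 had log2 values of 5.67, 6.07, 6.36 and 5.68 in Sox2-positive pools and 4.05, 4.60, 4.49 and 4.04 in Sox2-negative pools, higher in all 4 without overlap (adjusted p = 2.53e-05). Genes of the granule neuron lineage, which gives rise to these tumours, were present in both fractions (11 of 12 above the level described next), at a mean log2 value of 7.59 to 7.96 in Sox2-positive and 8.48 to 8.82 in Sox2-negative pools. Genes of odorant and pheromone receptors, for which tumour cells have no known use, showed what a dim value looks like, with an upper quartile of 5.80 on the log2 scale. Of the 34 members, 7 had a group mean under it, 5 of them both (Pfkl, Pdk1, Pfkfb4, P4ha2 and Adm), and a fold for such a gene may be understated. The Sox2-negative mean of Sox2 itself was also dim, so the size of its difference carries the same limit.

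The HIF subunits differed among themselves. Epas1, which encodes HIF-2 alpha, had log2 values of 8.86, 9.11, 9.02 and 8.70 in Sox2-positive pools 1 to 4, against 6.19, 5.68, 6.08 and 5.88 in Sox2-negative pools 1 to 4. Every Sox2-positive pool lay more than 2 log2 units above every Sox2-negative pool. The log2 difference was 2.97 (SE 0.12, 95% interval 2.70 to 3.24, adjusted p = 7.74e-09). In sorted bulk samples, more cells that use a gene and more RNA per cell cannot be told apart.

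Hif1a, which encodes HIF-1 alpha, had 8.41, 8.80, 8.63 and 8.52 in Sox2-positive pools, against 8.33, 8.58, 8.50 and 8.48 in Sox2-negative pools. The groups overlapped, with a difference of 0.12 (95% interval -0.10 to 0.33, adjusted p = 0.583), and a dimmer second probe set gave -0.02. Their partner Arnt averaged 7.92 ± 0.06 in Sox2-positive pools and 8.01 ± 0.21 in Sox2-negative pools (log2 value ± SD, n = 4 each), also overlapping (difference -0.09, 95% interval -0.32 to 0.14). The change of Epas1 exceeded that of Hif1a by 2.85 log2 units, and the per-array contrast of these genes did not overlap between the fractions (two-sided exact permutation p = 0.0286, the smallest that 4 against 4 arrays allow; 0.105 adjusted over 11 gene pairs).

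Of 15 further genes of the HIF pathway, 1 was higher and 1 lower, 13.3% called against 8.47% of all genes. The share of higher calls (6.67%) was near the 5.96% of all genes, while 2.52% of all genes were lower. At an unadjusted p under 0.05 in limma, 1 was higher and 3 lower. Arnt2, the neural relative of Arnt that can also pair with HIF subunits, had 8.19, 8.49, 8.09 and 8.11 in Sox2-positive pools and 6.84, 7.21, 7.04 and 6.94 in Sox2-negative pools. It was 2.32-fold higher without overlap (adjusted p = 1.03e-05), while Arnt was not called. Cited2, a hypoxia-induced protein that competes with HIF for its coactivators, had 9.31, 8.86, 9.31 and 8.93 in Sox2-positive pools and 9.67, 10.20, 10.05 and 9.69 in Sox2-negative pools. It fell by 0.80 on the log2 scale without overlap (adjusted p = 0.00268). The median over the 15 genes was -0.06.

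Epas1 is best known from the endothelium of blood vessels, so markers of that cell type were set beside it. Of 12 endothelial genes, 0 passed the limma test and 1 was lower at an unadjusted p under 0.05, with a median log2 difference of -0.08. Their mean log2 value was 5.31 to 5.39 in Sox2-positive and 5.37 to 5.52 in Sox2-negative pools, and 3 of 12 (Cdh5, Kdr and Egfl7) had a mean above the upper quartile of the receptor genes. The largest differences were those of Tek (-0.28) and Slco1a4 (-0.24). Of 8 pericyte and smooth muscle genes, 1 was higher, Rgs5 (1.29-fold, adjusted p = 0.0174), and Kcnj8 had a difference of -0.32. The call of Rgs5 ended without Sox2-positive pool 4 (adjusted p = 0.0571) and when its probe sets were averaged (log2 difference 0.21, adjusted p = 0.252). That of Kcnj8 was made with the replicate number as a block (0.0403).

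Most markers of oligodendrocyte progenitors and astrocytes were, like Epas1, higher in Sox2-positive pools, where 5.96% of all genes were called higher. All 8 progenitor genes were higher, Olig1 and Olig2 most (16.1-fold and 10.9-fold), with list means of 8.61 to 9.24 in Sox2-positive and 6.21 to 6.39 in Sox2-negative pools. Of 12 astrocyte genes 7 were higher and 0 lower, Gpr37l1 and Slc1a3 most (11.5-fold and 4.46-fold), and of 7 mature oligodendrocyte genes 4 were higher and 0 lower, led by Ugt8a (3.29-fold) and Cnp (3.27-fold). Sox2-positive pool 2 stood apart for the last list, with a mean log2 value of 7.73, against 6.48, 6.74 and 7.04 in Sox2-positive pools 1, 3 and 4 and 5.94 to 6.12 in Sox2-negative pools. The Sox2-negative means of Olig1, Cnp and Rgs5 were dim. At an unadjusted p under 0.05 in limma, 0 genes of these 3 lists were lower. Of 12 granule lineage genes, 10 were lower, Cntn2 (log2 difference -1.49) and Nhlh1 (-1.35) most, and 0 higher. Of the same 12, 11 were lower and 0 higher at an unadjusted p under 0.05 in limma. The part of these cell types in the differences of the glycolysis and hypoxia genes was not tested.

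The genes that mark HIF for breakdown came next. Egln3, an oxygen-sensing prolyl hydroxylase that HIF itself induces, had 5.80, 5.78, 6.08 and 6.13 in Sox2-positive pools, against 5.39, 5.23, 5.13 and 5.88 in Sox2-negative pools. Sox2-negative pool 4 lay inside the Sox2-positive range, so the groups overlapped. The log2 difference was 0.54 (SE 0.15, adjusted p = 0.0387), and the Sox2-negative mean of 5.41 lay in the dim range. Leaving out any of Sox2-positive pools 2, 3 and 4 or of Sox2-negative pools 1, 2 and 3 ended the call (adjusted p = 0.0507 to 0.111). Egln1, the main hydroxylase in most cells, had a difference of 0.27 (95% interval 0.03 to 0.50, adjusted p = 0.184). Vhl, which binds hydroxylated HIF and has it tagged for breakdown, had -0.03 (95% interval -0.24 to 0.17). The changes of Egln3 and Egln1 differed by 0.27 (exact permutation p = 0.257).

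Of the 7 measured members listed as hypoxia targets, leaving aside the HIF subunits and the genes of HIF breakdown, P4ha1 alone passed. It encodes the catalytic subunit of the prolyl hydroxylase that prepares collagen for folding. It had 6.85, 7.11, 7.25 and 7.15 in Sox2-positive pools, against 6.52, 6.66, 6.40 and 6.74 in Sox2-negative pools. All 4 Sox2-positive pools lay above all Sox2-negative pools, with a log2 difference of 0.51 (SE 0.11, adjusted p = 0.00826). P4ha2, its isozyme, was dim in both fractions and averaged 5.03 ± 0.08 in Sox2-positive pools and 5.11 ± 0.14 in Sox2-negative pools (SD, n = 4 each). The change of P4ha2 lay 0.59 below that of P4ha1 without overlap (exact permutation p = 0.0286; 0.105 adjusted over the pairs).

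Vegfa, the main growth factor of blood vessels, varied most among Sox2-positive pools of all members (SD 0.61, where the median member had 0.15). It had 6.45, 6.45, 6.61 and 7.71 in Sox2-positive pools, against 6.21, 5.80, 6.19 and 6.49 in Sox2-negative pools. Sox2-positive pool 4 stood high, and the lowest Sox2-positive pools lay just under Sox2-negative pool 4. The log2 difference was 0.63 (95% interval 0.12 to 1.15, adjusted p = 0.143), and 0.33 without Sox2-positive pool 4 (0.229). With the replicate number as a block in limma it passed (adjusted p = 0.0122). The Sox2-positive pool was higher in all 4 pairs of equal number, by 0.24, 0.65, 0.42 and 1.22. Ldha was also higher in all 4 pairs and did not pass with the block (adjusted p = 0.122). The pairing by number is weak, as given below.

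Adm, which encodes the vessel-dilating peptide adrenomedullin, had 4.73, 4.73, 4.91 and 4.80 in Sox2-positive pools, against 4.51, 4.45, 4.51 and 4.70 in Sox2-negative pools. The groups did not overlap, yet both lay in the dim range and the difference of 0.25 did not pass (adjusted p = 0.123). Bnip3, a mitochondrial protein of hypoxic autophagy, had 6.12, 6.31, 6.07 and 6.29 in Sox2-positive pools, against 6.26, 6.33, 6.22 and 6.58 in Sox2-negative pools, with a difference of -0.15 (95% interval -0.37 to 0.08). The stress genes Ndrg1 and Ddit4, the second an inhibitor of mTOR signalling, had differences of 0.17 and -0.05, not past the test. Ddit4 spread more among Sox2-negative pools (SD 0.37) than any other member.

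**Figure D2:**
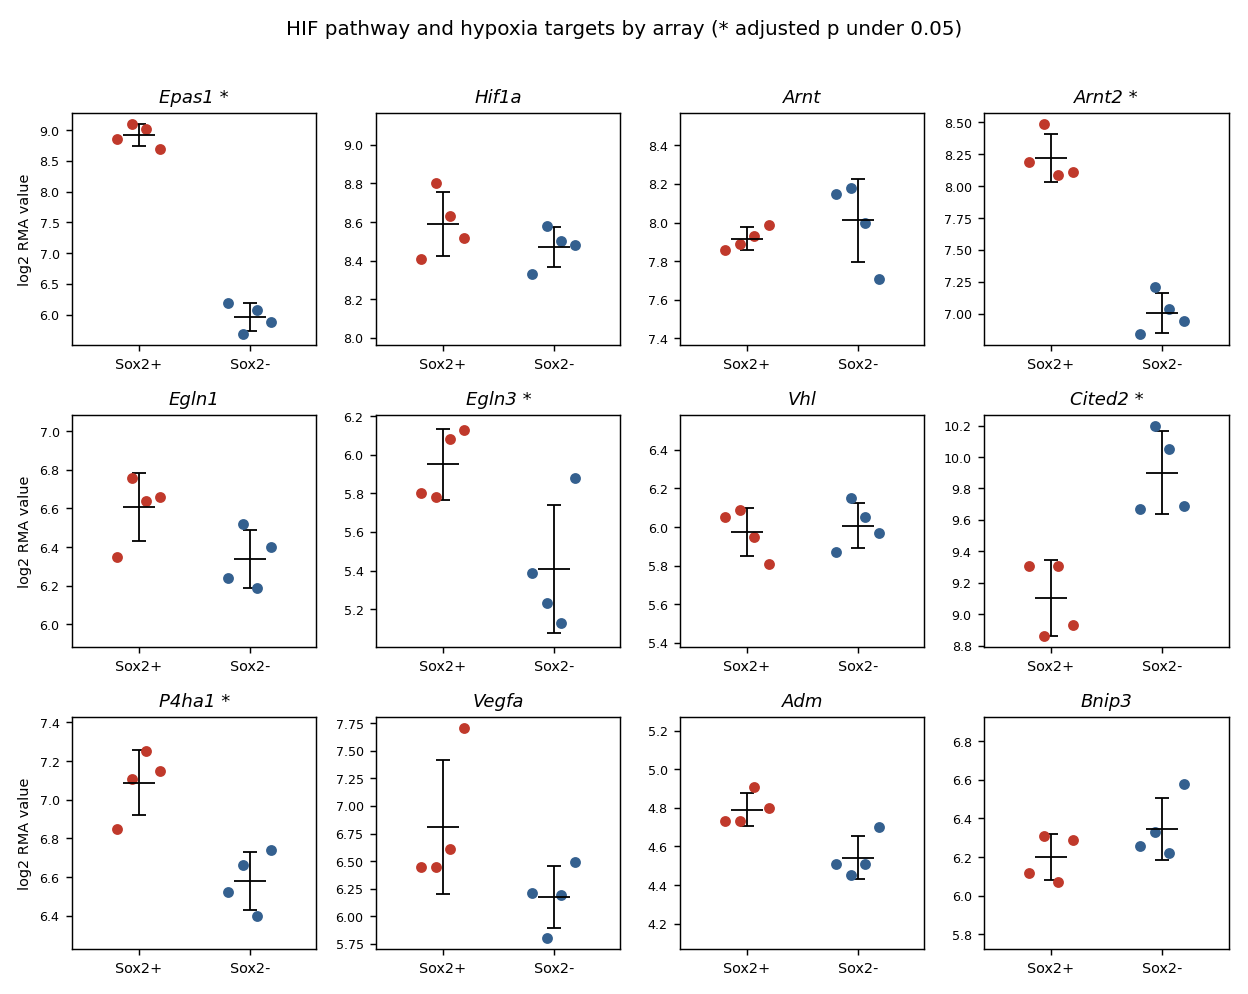
Log2 RMA values of 12 genes of the HIF pathway and its targets, Sox2-positive pools in red on the left and Sox2-negative pools in blue on the right. Points are the 4 arrays of a group in order of pool number, black bars the mean ± SD, an asterisk marks an adjusted p under 0.05, and each panel has its own scale of at least 1.2 log2 units. Epas1 and Arnt2 separate upward and Cited2 downward, while Hif1a, Arnt and Vhl overlap.

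The other targets of a longer list were mixed. Of 47 further hypoxia targets, 8 were higher and 0 lower (6 lower at an unadjusted p under 0.05 in limma), 17.0% against 8.47% of all genes, yet the list's median was 0.01. The binding protein gene Igfbp3 was 2.74-fold higher (adjusted p = 5.55e-05). The transcriptional repressor gene Bhlhe40 was 2.16-fold higher (adjusted p = 0.000116) and its relative Bhlhe41, dim in both fractions, 1.53-fold higher (adjusted p = 0.00183). Plod1, which hydroxylates lysines of collagen, was 1.83-fold higher (adjusted p = 0.000536), against a Sox2-negative mean of 5.45 in the dim range. None of these 4 overlapped between the fractions.

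In glycolysis itself, the first step is phosphorylation of glucose by hexokinase. Hk2, the isozyme that HIF and growth signals induce, had 7.23, 6.50, 6.83 and 6.80 in Sox2-positive pools, against 7.36, 7.44, 7.12 and 7.01 in Sox2-negative pools. Sox2-positive pool 1 lay among the Sox2-negative pools and the other Sox2-positive pools lay below them. The log2 difference was -0.39 (95% interval -0.70 to -0.08, adjusted p = 0.130), and without Sox2-positive pool 1 it was -0.52 and passed (0.0256). Hk1, the housekeeping isozyme, had a difference of 0.19 (95% interval -0.02 to 0.40). The change of Hk2 lay 0.58 below that of Hk1, with overlap (exact permutation p = 0.0571; 0.126 adjusted over the pairs).

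Phosphofructokinase, the committed step, has liver, muscle and platelet forms. Pfkp, the platelet form, had 6.66, 6.67, 6.82 and 6.67 in Sox2-positive pools, against 6.37, 6.37, 6.37 and 6.23 in Sox2-negative pools. The groups lay apart, with a difference of 0.37 (SE 0.08, adjusted p = 0.0134). Pfkm, the muscle form, had 6.50, 6.46, 6.66 and 5.93 in Sox2-positive pools, against 5.56, 6.22, 6.0 and 5.76 in Sox2-negative pools, with a difference of 0.50 (95% interval 0.15 to 0.86, adjusted p = 0.0810). It passed with the replicate number as a block (0.0248), without Sox2-positive pool 4 (0.0132) and without Sox2-negative pool 2 (0.0392). Pfkl, the liver form, was dim, with a difference of -0.06. The change of Pfkp exceeded that of Pfkl by 0.43 (exact permutation p = 0.0857) and lay 0.13 below that of Pfkm (exact permutation p = 0.543).

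Aldoc had the largest change among the enzymes. It encodes aldolase C, the brain form, which splits the sugar bisphosphate and is a known marker of astrocytes. It had 7.71, 8.10, 8.24 and 7.56 in Sox2-positive pools, against 6.91, 6.76, 6.88 and 6.81 in Sox2-negative pools. The Sox2-positive pools spread more (SD 0.32 against 0.07 in Sox2-negative pools) and all lay above the Sox2-negative ones. The log2 difference was 1.06 (SE 0.13, adjusted p = 0.000147). The mean log2 value of the 12 astrocyte markers was 7.12, 7.14, 7.56 and 6.96 in Sox2-positive pools, where pool 3 was highest and pool 4 lowest, as for Aldoc, and 6.12 to 6.21 in Sox2-negative pools. Their part in the difference of Aldoc was not tested.

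The lower steps differed little. Eno2, the neuronal enolase, had 5.95, 5.93, 6.08 and 5.96 in Sox2-positive pools, against 5.77, 5.63, 5.70 and 5.65 in Sox2-negative pools, a difference of 0.29 without overlap (SE 0.08, adjusted p = 0.0433). Its call ended without any 1 of the 8 arrays (0.0616 to 0.130), with the replicate block (0.0528) and with array weights (0.0510), and its Sox2-negative mean of 5.69 lay in the dim range. Pkm, pyruvate kinase of muscle and most dividing cells, had 8.86, 8.87, 8.94 and 9.05 in Sox2-positive pools, against 8.70, 9.00, 8.82 and 8.94 in Sox2-negative pools, a difference of 0.07 (95% interval -0.14 to 0.27). The values of the splice forms of Pkm were not analysed here.

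Tpi1, Gapdh, Pgk1 and Pgam1 had differences of 0.20, -0.03, 0.30 and 0.04, none past the test. That of Pgk1, the step that first yields ATP, had an interval above 0 (0.06 to 0.53, adjusted p = 0.127). Gapdh had 3 probe sets of its own, with differences of -0.03, -0.05 and -0.10, and shared 8 others with further symbols. The mouse genome holds many processed copies of such enzyme genes, which the probes may also read, and this was not tested.

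Pyruvate may become lactate or enter the mitochondrion. Ldha, the lactate-forming subunit, had 6.15, 6.48, 6.68 and 6.53 in Sox2-positive pools, against 6.09, 6.26, 6.25 and 6.24 in Sox2-negative pools. Sox2-positive pool 1 lay among the Sox2-negative pools, and the difference of 0.25 (95% interval 0.02 to 0.49) did not pass (adjusted p = 0.214), but did without that pool (0.0431). Ldhb, the lactate-using subunit, differed by as much, 0.25 (95% interval 0.002 to 0.51, adjusted p = 0.243). The difference between their changes was 0.0005 (exact permutation p = 1.0).

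Pyruvate dehydrogenase kinases inhibit pyruvate dehydrogenase, the mitochondrial enzyme that commits pyruvate to oxidation. Pdk1, the classical HIF target among them, had 5.81, 5.60, 5.66 and 5.55 in Sox2-positive pools, against 5.70, 5.58, 5.69 and 5.89 in Sox2-negative pools, both dim, with a difference of -0.06 (95% interval -0.27 to 0.14). Pdk2, Pdk3 and Pdk4 had differences of 0.33, 0.29 and -0.26, with intervals that left out 0 and adjusted p-values of 0.153, 0.146 and 0.177. Pdk2 passed with the replicate block (0.0302), the Sox2-positive pool being higher by 0.30, 0.25, 0.40 and 0.36 in the pairs of equal number. The change of Pdk4, the form induced by fasting, lay 0.55 below that of Pdk3 without overlap (exact permutation p = 0.0286; 0.105 adjusted over the pairs).

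The bifunctional enzymes that set fructose-2,6-bisphosphate, the activator of phosphofructokinase, did not pass either. Pfkfb2, Pfkfb3 and Pfkfb4 had differences of 0.25, 0.16 and -0.22, with adjusted p-values of 0.242, 0.423 and 0.219. Pfkfb3, the form that favours the activator most, and Pfkfb4 are both known HIF targets. Their changes differed by 0.38, Pfkfb4 below Pfkfb3 (exact permutation p = 0.0857), but Pfkfb4 was dim in both fractions and the size says little of it.

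**Figure D3:**
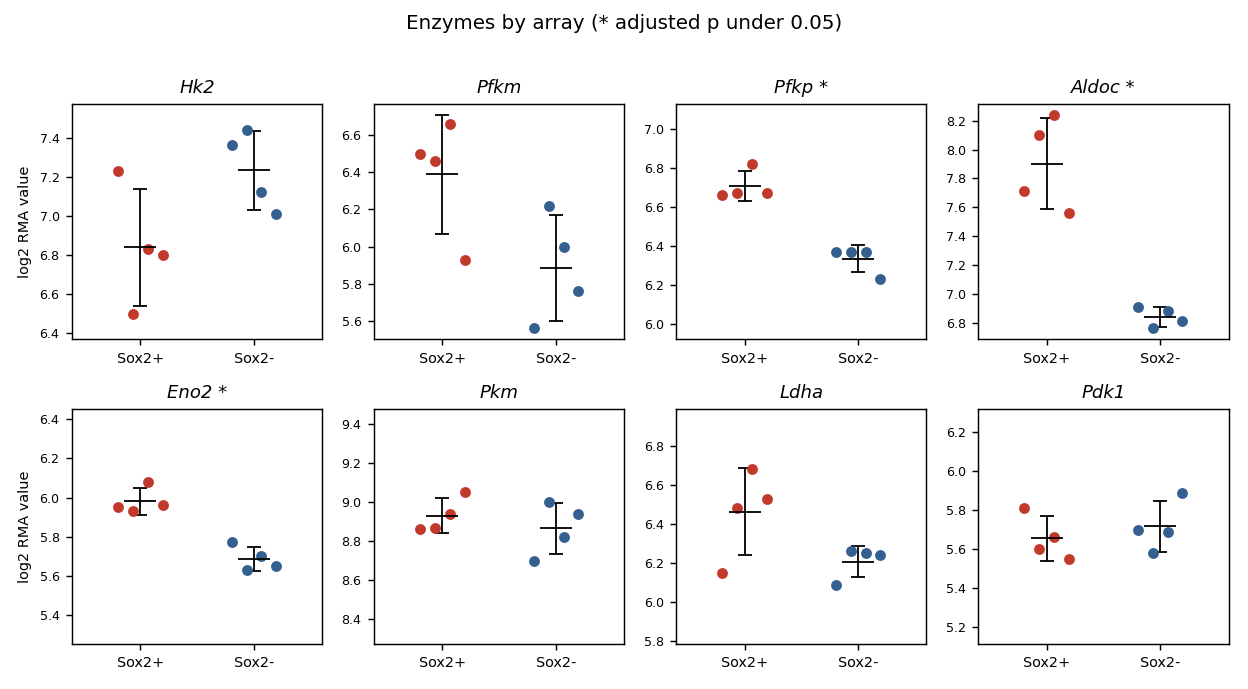
Log2 RMA values of 8 enzymes of glycolysis and pyruvate use, Sox2-positive pools in red on the left and Sox2-negative pools in blue on the right. Points are the 4 arrays of a group in order of pool number, black bars the mean ± SD, an asterisk marks an adjusted p under 0.05, and each panel has its own scale of at least 1.2 log2 units. Pfkp, Aldoc and Eno2 do not overlap, and Hk2 and Ldha each have Sox2-positive pool 1 among the Sox2-negative pools.

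Across the 14 related pairs compared for unequal change, 11 were measured on both sides. The fractions did not overlap for 3 (Epas1 against Hif1a, P4ha2 against P4ha1, and Pdk4 against Pdk3). At 70 relabelings of the arrays, 7 pairs at the smallest p would have been needed for an adjusted p under 0.05, so none of the 11 could reach it with 3. These tests compare changes, not levels, of probe sets. The pairs were chosen with earlier results of these data known, so the p-values here and above describe the contrasts and are not independent support. Pfkl, Pdk1, P4ha2 and Pfkfb4 were dim in both fractions, so that the pairs they belong to may misstate the size of the contrast.

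By counts that were not tested, the enzymes and the hypoxia genes were most often highest in different Sox2-positive pools. Pool 3 had the highest value for 10 of the 21 enzymes, and pool 1 for 0 of the 13 hypoxia genes, where pool 2 was highest for 6 and pool 4 for 5. The mean log2 value over the enzymes was 6.96 to 7.12 in Sox2-positive and 6.77 to 6.90 in Sox2-negative pools, without overlap. Over all 13 hypoxia genes it was 6.548, 6.665, 6.671 and 6.738 in Sox2-positive pools 1 to 4. In Sox2-negative pools it was 6.218 to 6.372, without overlap. Over the hypoxia genes without Epas1 it was 6.36 to 6.58 in Sox2-positive and 6.22 to 6.41 in Sox2-negative pools, which overlap. The enzyme mean was not computed without Aldoc, its largest change, so the 2 branches are not compared by this.

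Genes that feed the pathway were set beside it. Of 10 glucose and lactate carrier genes 4 were higher and 0 lower (1 lower at an unadjusted p under 0.05 in limma), 40.0% against 8.47% of all genes, with a median of 0.20. Slc2a1, Slc2a3 and Slc16a3 also stand among the further hypoxia targets, and Slc2a1 counts as a call in both lists. Kdr and Flt1, neither called, stand among both the further hypoxia targets and the endothelial genes. The glucose transporter Slc2a1 was 1.47-fold and Slc2a12, dim in both fractions, 1.30-fold higher, the monocarboxylate carrier Slc16a7 1.44-fold higher, and Bsg, which brings lactate carriers to the membrane, 1.33-fold higher. All 4 separated without overlap. The call of Slc16a7 held when any 1 array was left out. That of Slc2a1 ended on leaving out Sox2-positive pools 3 and 4 or Sox2-negative pools 1 and 3, each in turn (adjusted p = 0.0566 to 0.0674), and when its probe sets were averaged (log2 difference 0.28, adjusted p = 0.134). That of Slc2a12 ended on leaving out Sox2-positive pools 2 and 3 or Sox2-negative pool 1, each in turn (adjusted p = 0.0699 to 0.0817). That of Bsg ended on leaving out Sox2-positive pools 2 and 3 or Sox2-negative pools 1 and 4, each in turn (adjusted p = 0.0849 to 0.0992).

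Of 27 further enzymes of glycolysis and pyruvate use, 1 was higher and 2 lower, with a median of -0.02. Their called share of 11.1% was near the 8.47% of all genes, so the genes named next are single calls and not a result about the list. Mpc1, a subunit of the mitochondrial pyruvate carrier, had 8.65, 9.11, 9.35 and 8.67 in Sox2-positive pools and 7.48, 8.72, 8.40 and 7.86 in Sox2-negative pools. It was 1.78-fold higher with overlap (adjusted p = 0.0422). Pdp1, the phosphatase that opposes the pyruvate dehydrogenase kinases, fell by 0.42 on the log2 scale (adjusted p = 0.00599), and Pgm2l1, a glucose-1,6-bisphosphate synthase, fell by 0.57 (adjusted p = 0.0241). Mpc1 lost its call when Sox2-positive pools 2 and 3 or Sox2-negative pools 1 and 4 were left out in turn (adjusted p = 0.120 to 0.130), with arrays centred on their median (adjusted p = 0.0528) and when its probe sets were averaged (log2 difference 0.51, adjusted p = 0.0786). Pgm2l1 lost its call when Sox2-positive pools 2 and 4 or Sox2-negative pools 2 and 3 were left out in turn (adjusted p = 0.0515 to 0.0869).

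**Figure D4:**
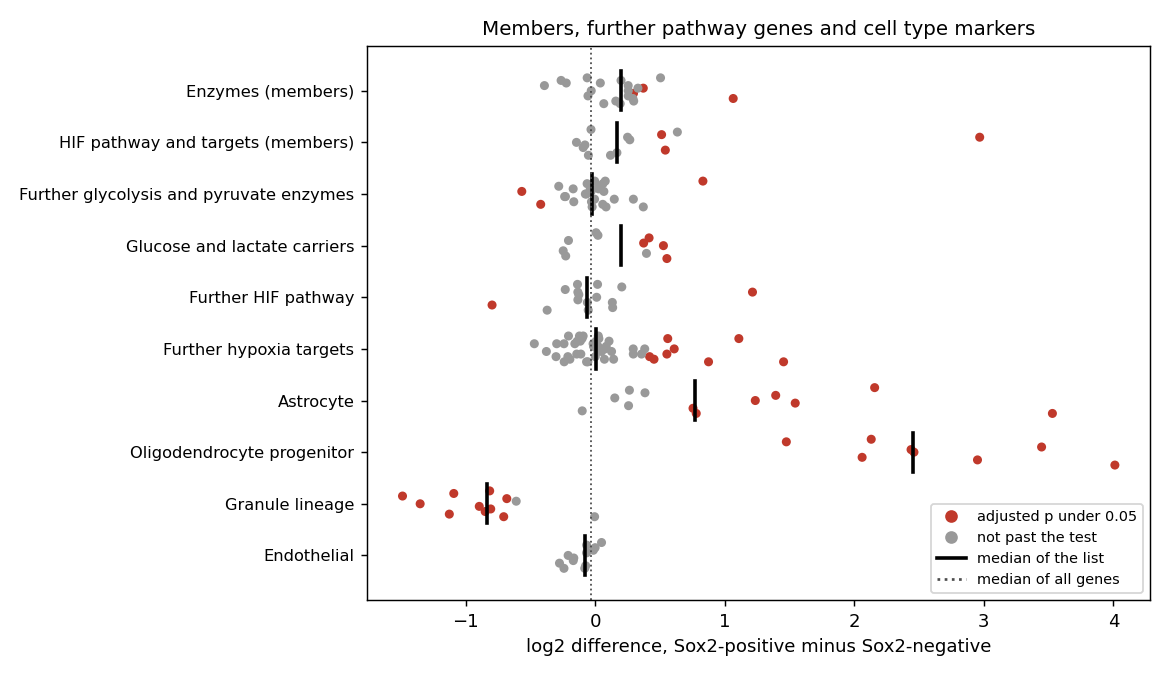
Log2 differences (Sox2-positive minus Sox2-negative) of the members, of 4 further pathway lists and of 4 cell type marker lists, 1 point per gene, with the vertical offset for legibility alone. Red marks an adjusted p under 0.05, thick bars the median of each list and the dotted line the median of all genes at -0.03. The endothelial markers lie between -0.28 and 0.05 and the oligodendrocyte progenitor markers between 1.47 and 4.01, with Epas1 at 2.97 in the row of hypoxia members.

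The promoters of the called genes were read for the core of the HIF element. RefSeq windows of 250 bases before to 50 bases after a gene's start (build GRCm38.p6) were given for 37 of the 40 members, Epas1 not among them, and for 5 of the 6 called. They are shown for P4ha1, Egln3, Pfkp and Aldoc, which all passed the test. Capitals mark ACGTG or GCGTG on either strand (CACGT and CACGC on the printed strand), and overlapping matches run together. ACGTG is also part of the E-box CACGTG.

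P4ha1 (chr10:59323046-59323345, plus strand): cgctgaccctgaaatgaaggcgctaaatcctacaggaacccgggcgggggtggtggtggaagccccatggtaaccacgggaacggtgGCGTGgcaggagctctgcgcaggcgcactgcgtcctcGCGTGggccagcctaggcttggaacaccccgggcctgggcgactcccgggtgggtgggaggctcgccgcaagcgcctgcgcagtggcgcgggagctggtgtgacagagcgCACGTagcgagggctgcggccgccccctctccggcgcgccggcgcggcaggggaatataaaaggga
Egln3 (chr12:54203825-54204124, minus strand): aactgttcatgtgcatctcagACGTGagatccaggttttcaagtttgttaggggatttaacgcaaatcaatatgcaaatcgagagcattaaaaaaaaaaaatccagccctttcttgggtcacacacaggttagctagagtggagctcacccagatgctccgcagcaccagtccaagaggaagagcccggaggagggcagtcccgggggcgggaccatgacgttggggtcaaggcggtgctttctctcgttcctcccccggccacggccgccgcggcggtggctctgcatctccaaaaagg
Pfkp (chr13:6648722-6649021, minus strand): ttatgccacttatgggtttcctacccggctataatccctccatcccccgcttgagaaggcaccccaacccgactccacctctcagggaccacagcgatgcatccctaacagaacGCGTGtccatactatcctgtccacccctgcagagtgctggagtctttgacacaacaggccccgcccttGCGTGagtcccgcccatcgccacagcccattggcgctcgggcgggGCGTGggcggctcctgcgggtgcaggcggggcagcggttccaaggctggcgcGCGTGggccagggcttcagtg
Aldoc (chr11:78322823-78323122, plus strand): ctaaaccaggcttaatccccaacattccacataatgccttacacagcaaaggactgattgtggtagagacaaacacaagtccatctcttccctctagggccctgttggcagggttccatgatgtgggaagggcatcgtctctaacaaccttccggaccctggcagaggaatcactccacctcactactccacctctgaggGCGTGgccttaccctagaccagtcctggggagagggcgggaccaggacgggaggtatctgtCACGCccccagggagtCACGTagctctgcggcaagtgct

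The P4ha1 window held 3 matches, 1 of ACGTG and 2 of GCGTG, and the first Aldoc window also held 3, in the same split (a second start of Aldoc had 1, of GCGTG). The Pfkp window held 4, all GCGTG, and the Egln3 window 1, of ACGTG. The window of Eno2 held 0, which says only that these letters are not in it. Of the 57 windows of members, 43 held at least 1 match (75.4%), against 14380 of 32851 windows of all genes (43.8%). Members' windows also had more G and C bases (median 60.7% against 52.7% in all windows), and genes of this set are in part known for such elements. Among members, 5 of 6 windows of called genes (83.3%) and 31 of 39 windows of measured genes that were not called (79.5%) held a match. A match is a description of the letters and not a site of binding.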

How the data were processed

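The deposited table held 41345 probe sets on 8 Affymetrix arrays as log2 values. The authors produced these by RMA in Affymetrix Expression Console (version 1.2.0.20), per the submitters' processing notes. This method subtracts background, forces all arrays onto 1 distribution and combines each set's probes, and it compresses folds of dim genes and removes differences in total RNA. That the deposited values are on the log2 scale follows from their range, 2.51 to 13.6. The genome build of the probes is not given in the sources used here. Of the probe sets 23521 had 1 symbol in the platform annotation, 1814 several and 16010 none. The probe set with the highest mean was kept per gene (22180 genes), and array medians lay between 5.83 and 5.88. No filter was applied.

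The fit across genes used limma (version 3.58.1, R version 4.3.3; group as the only term, Benjamini-Hochberg over all genes, two-sided), a procedure tested on simulated data. Pairs of genes were compared by exact permutation over arrays. The 15 alternatives were the replicate number as a block, each array left out, quantile normalization, the mean of probe sets, dim genes left out, a variance trend with robust fitting, array weights, and arrays centred on their median. Pool numbers 1 to 4 recur in both fractions, and the labels do not say that equal numbers share tumours. Deviations from group means correlated at 0.164, 0.114, 0.177 and 0.241 between arrays of equal number, and at -0.284 to 0.161 between arrays of unequal number. The highest of these (0.161 and 0.137) exceed the 0.114 of number 2, so the pairing is weak, and it was used because every equal-numbered pair exceeded 0.1. Correlations between arrays lay from 0.942 to 0.987, and no array repeated another.

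The members, lists and pairs were chosen with earlier results of these data known. Values of every array were given for called and non-overlapping members and for Hif1a, Epas1, Vegfa, Hk2, Ldha, Pkm, Pdk1 and Bnip3, and also, chosen after its values were seen, for Pfkm. Up to 4 called genes were named per further pathway list, and the 2 with the largest difference per list of cell type markers, of which there were 8. The list of microglia and macrophages had 0 of 11 called and 1 lower at an unadjusted p under 0.05 in limma (median -0.05, Ctss -0.26 and Tmem119 -0.18). The list of red blood cells had 0 of 2, also unadjusted (median 0.06, Slc4a1 0.14 and Epb42 -0.02). Both cover cells the sort was meant to remove. A mean above the upper quartile of the receptor genes was found for 3 of the 11 (Cx3cr1, Cd68 and C1qb) and for 0 of the 2. Of the listed genes, Ero1l, Tceb1 and Tceb2 were matched to current symbols through RefSeq synonyms, and no symbol of the platform annotation changed.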

Additional observations from a re-analysis of the deposited data

Results flagged for a closer look

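In groups of 4 arrays, an array was singled out where its gap to the nearest of the others exceeded Dixon's 95% critical share of the group's range. Of 94 groups tested, 7 had such an array, where chance gives about 1 in 20 (4.7). Sox2-positive pool 4 stood high for Vegfa (7.71, the others 6.45 to 6.61). Sox2-positive pool 3 stood high for Pfkp (6.82, the others 6.66 to 6.67) and for Pdk2 (6.90, the others 6.42 to 6.48), and Sox2-positive pool 2 for Slc16a7 (7.11, the others 6.57 to 6.63). Sox2-negative pool 4 stood low for Pfkp (6.23, the others 6.37) and high for Igfbp3 (6.19, the others 5.69 to 5.76), and Sox2-negative pool 1 low for Ldha (6.09, the others 6.24 to 6.26). The cause was not tested.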

How the results depend on the processing

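Of the 34 members, 22 kept their direction and their side of the threshold in all alternatives that could be run, among them Epas1 (log2 difference 2.87 to 3.04), Aldoc (0.95 to 1.18), Pfkp (0.33 to 0.39) and P4ha1 (0.45 to 0.59). The calls of Eno2 and Egln3 were the ones lost, and Hk2, Pfkm, Ldha, Pdk2 and Vegfa gained a call, as given above. The replicate block changed no other member's call and gave 4 higher enzymes and 4 higher hypoxia genes, while calls over all genes grew as well, to 1572 higher (1321 without the block) and 768 lower (558). Leaving out 1 array gave 2 to 3 higher and 0 to 1 lower enzymes, 2 to 3 higher and 0 lower hypoxia genes, and 309 to 591 lower genes of all (558 with all arrays). Quantile normalization moved the median of all genes to -0.007. Signs turned for genes near 0. On leaving out 1 array, the log2 difference ran from -0.15 to 0.0091 for Pfkl, from -0.061 to 0.0059 for Gapdh, from -0.040 to 0.12 for Pgam1, from -0.080 to 0.022 for Vhl, from -0.18 to 0.064 for Ddit4 and from -0.074 to 0.039 for the red blood cell gene Epb42. With quantile normalization Gapdh had 0.067, Epb42 0.023 and the pair Ldhb against Ldha -0.0037, and with array weights Ddit4 had 0.047. The cause was not tested. The other pairs kept their direction. With signs flipped within pool numbers, the 16 flips cannot give a p under 0.125, and with an array left out the pairs were computed as values without a test. Pfkl, Pdk1, Pfkfb4, P4ha2, Adm and Egln3 were left out with the dim genes and so had no value there.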
